A study of Mus musculus with 6 samples.

Results

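Splicing regulators of the adult mouse spinal cord were compared between mice lacking Sox2 in astrocytes and their controls. The 53 genes were protein-coding genes chosen by symbol (Srsf, Hnrnp, Rbfox, Mbnl, Celf, Nova and Ptbp genes, with Qk, Khdrbs2, Khdrbs3, Elavl2, Elavl3 and Elavl4) and a summed count of at least 30, out of 35275 rows of the count table, 21397 of them protein-coding. They comprised 11 SR protein genes, 20 hnRNP genes and 22 neural splicing factor genes. One further symbol, Mbnl3, had 5 counts over the 6 libraries and was left out.

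Poly(A) RNA of whole spinal cord was sequenced from 3 Sox2 cKO and 3 Ctrl mice on the C57BL/6 background. The Sox2 cKO genotype was mGfap-Cre:Sox2fl/fl, in which the mouse Gfap promoter drives Cre, and every cell type of the cord contributed RNA. For the controls the labels give mGfap-Cre:Sox2+/+, the design text gives mGfap-Cre or Sox2fl/fl, and the methods give littermates with the floxed allele. The age is given as P90 in one label and as P80 elsewhere. The libraries are called by the numbers of their columns, 2, 4 and 6 for Ctrl and 1, 3 and 5 for Sox2 cKO, and held between 21507911 and 28392184 counts. The assignment of columns to groups was checked against group means listed by the authors, which matched for 1999 of 1999 genes. Sox2 itself was at 19.9, 14.8 and 29.5 CPM (counts scaled by TMM to a common library size) in the Ctrl libraries and at 3.16, 2.69 and 2.98 CPM in the Sox2 cKO libraries, in the order above. Its log2 fold change was -2.86 ± 0.24 (SE, n = 3 per group, edgeR adjusted p = 0.00096), and the groups did not overlap.

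SR proteins carry RNA recognition motifs and a domain rich in arginine and serine. They bind exonic enhancers, recruit the U1 and U2 particles to splice sites and are regulated by phosphorylation, and many of their own transcripts hold exons whose inclusion leads to nonsense-mediated decay. The hnRNPs coat nascent transcripts and often oppose SR proteins at exons. Rbfox, Nova, Ptbp, Celf, Mbnl, Elavl, Khdrbs and Qk proteins bind short sequence elements around alternative exons and set the splicing programmes of neurons, glia and muscle.

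Of the 53 genes, all were tested and 22 passed the edgeR quasi-likelihood test at an adjusted p below 0.05, which is 41.5% of the genes against 24.6% of the 16137 genes tested. Among them, 14 were higher in Sox2 cKO (26.4%, against 12.2% of all genes) and 8 were lower (15.1%, against 12.4%). The SR protein genes held 7 of the 14 rises and 1 of the falls. Every Sox2 cKO library lay on one side of every Ctrl library for 31 of the 53 genes, 20 higher and 11 lower. Over the 16137 genes these counts were 7216, 3652 and 3564 (44.7%, 22.6% and 22.1%). The share that was lower was thus near that of all genes. The median log2 fold change was 0.07 over the 53 genes and 0.02 over all genes, and the CPM summed over the 53 genes lay between 7260 and 7540 in every library. Over all genes tested, CPM summed to 1010000 to 1060000 in Ctrl and 944000 to 988000 in Sox2 cKO. The FPKM of the 53 genes summed to 1750 to 1900 in Ctrl and 1950 to 2040 in Sox2 cKO. Over all genes tested, FPKM summed to 357000 to 381000 and 394000 to 409000. The adjusted p depended on single libraries. The edgeR test called 0 of the 53 genes without Ctrl library 4 and 0 without Sox2 cKO library 1, with 22 and 24 at an unadjusted p under 0.05 and 13 and 16 called by DESeq2. It called 4 without Ctrl library 6 and 7 without Sox2 cKO library 3. The shares of all genes called by edgeR in these 4 fits were 0.159%, 0.0485%, 6.54% and 8.31%, and without Sox2 cKO library 5 it called 17 of the 53 against 16.3%. DESeq2 called 21 of the 53 with all libraries, against 28.1% of all genes. Leaving out Ctrl library 2, 4 or 6, DESeq2 called 31, 13 and 15 of the 53, against 35.5%, 14.9% and 17.0%, and leaving out Sox2 cKO library 1, 3 or 5 it called 16, 16 and 20, against 17.5%, 20.4% and 22.8%. Limma on log2(FPKM + 1) called 21 of the 53 (24.3% of all genes), with 17 higher and 4 lower against 18.1% and 6.2% of all genes. Over all 20 fits, the 22 called genes kept their direction. This was close to given, since they were chosen on the same libraries that the other fits use.

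As a group, the SR protein genes stood higher in Sox2 cKO. Their CPM summed to 882, 655 and 642 in Ctrl libraries 2, 4 and 6 and to 1120, 1110 and 985 in Sox2 cKO libraries 1, 3 and 5. The lowest Sox2 cKO sum was above the highest Ctrl sum, which was that of library 2. The median log2 fold change of the 11 genes was 0.47, and 7 were called higher, 1 lower and 3 not called. These were 63.6% higher and 9.09% lower, against 12.2% and 12.4% of all genes. The groups did not overlap for 8 genes that were higher and 1 that was lower, against 22.6% and 22.1% of all genes. The calls depended on single libraries, since edgeR called 0 of the 53 genes without Ctrl library 4 or without Sox2 cKO library 1.

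**Figure D1:**
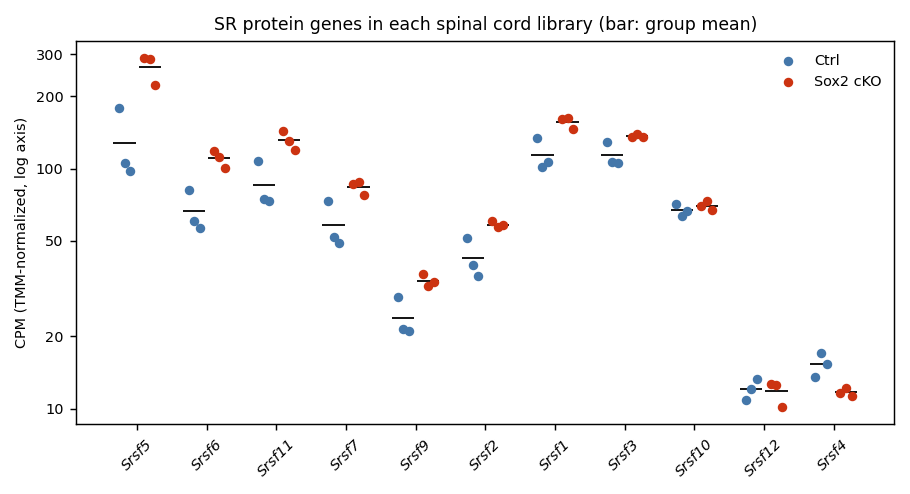
CPM (log axis) of the 11 SR protein genes in each of the 3 Ctrl and 3 Sox2 cKO libraries, with a bar at each group mean. The Sox2 cKO points lie above the Ctrl points for Srsf5, Srsf6, Srsf11, Srsf7, Srsf9, Srsf2, Srsf1 and Srsf3 and below them for Srsf4, and overlap for Srsf10 and Srsf12.

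Srsf5 (ENSMUSG00000021134), an SR protein active in exon inclusion, had the highest level per length of the family and the largest fold change of the 53 genes. It lies at chr12:80945504-80950507 on the + strand of GRCm38. Its CPM was 179, 106 and 98.1 in the Ctrl libraries and 289, 286 and 224 in the Sox2 cKO libraries. The groups did not overlap, and Ctrl library 2 was the nearest to the Sox2 cKO range. The log2 fold change was 1.06 ± 0.20 (SE, n = 3 per group, edgeR adjusted p = 0.013). On the FPKM scale, which divides by gene length, Srsf5 stood at 35.6 ± 13.5 in Ctrl and 79.3 ± 12.3 in Sox2 cKO (SD, n = 3 per group).

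Srsf6, which binds exonic enhancers, was at 81.9, 60.7 and 56.8 CPM in Ctrl and at 119, 112 and 101 CPM in Sox2 cKO. Its log2 fold change was 0.74 ± 0.13 (SE, n = 3 per group, edgeR adjusted p = 0.012). Srsf11, a nuclear SR protein that contacts U2AF, was at 108, 74.5 and 73.5 CPM in Ctrl and at 143, 131 and 120 CPM in Sox2 cKO. Its log2 fold change was 0.63 ± 0.14 (SE, edgeR adjusted p = 0.016). Neither gene overlapped between the groups, and both rises were of similar size with and without the correction for gene length described below. Srsf7, which carries a zinc knuckle and also acts in mRNA export, was at 73.3, 52.1 and 49.0 CPM in Ctrl and at 86.6, 88.1 and 77.8 CPM in Sox2 cKO, with a log2 fold change of 0.53 ± 0.14 (SE, edgeR adjusted p = 0.023). Srsf1, the founding member of the family, was at 134, 102 and 107 CPM in Ctrl and at 161, 163 and 146 CPM in Sox2 cKO, with a log2 fold change of 0.45 ± 0.11 (SE, edgeR adjusted p = 0.020). Both genes had Ctrl library 2 as their highest Ctrl value, below every Sox2 cKO value.

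Srsf9 and Srsf2 were the shortest SR protein genes, with 1162 and 1899 bases. Srsf9, which can act against exon inclusion, was at 29.2, 21.5 and 21.0 CPM in Ctrl and at 36.5, 32.3 and 33.6 CPM in Sox2 cKO, with a log2 fold change of 0.51 ± 0.13 (SE, edgeR adjusted p = 0.021). Srsf2, a component of nuclear speckles, was at 51.5, 39.7 and 35.7 CPM in Ctrl and at 60.3, 57.1 and 58.1 CPM in Sox2 cKO, with a log2 fold change of 0.47 ± 0.12 (SE, edgeR adjusted p = 0.024). With the length correction neither was called, at adjusted p of 0.15 for Srsf9 and 0.077 for Srsf2. Of the exon bases of Srsf2, 15.6% and 9.7% lie opposite Mettl23 and Mfsd11, and the sources used here do not say if reads were counted by strand.

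Srsf4 was the SR protein gene called lower. It was at 13.5, 17.1 and 15.4 CPM in Ctrl and at 11.6, 12.2 and 11.3 CPM in Sox2 cKO. The log2 fold change was -0.39 ± 0.12 (SE, edgeR adjusted p = 0.037), and the groups did not overlap. Gm12992 covers 43.0% of its exon bases on the opposite strand. Limma on log2(FPKM + 1) did not call Srsf4. Srsf3, the smallest SR protein, was separated between groups (106 to 129 CPM in Ctrl, 135 to 140 in Sox2 cKO) but missed the threshold at a log2 fold change of 0.26 ± 0.09 (SE, edgeR adjusted p = 0.063). Srsf10 and Srsf12 overlapped, with log2 fold changes of 0.07 ± 0.08 and -0.04 ± 0.13 (SE).

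The promoters of 47 of the 53 genes were found in the RefSeq table of GRCm38.p6, as 250 bases before and 50 after the start. The GC box GGGCGG, on either strand, was found in the promoters of 7 of the 7 SR protein genes called higher. It was in 12 of the 14 splicing regulator genes called higher and in 6 of the 6 called lower with a promoter in the table. Its share was 80.9% of the 47 genes and 38.2% of the 27025 genes with a promoter in the table. The core ACAAAG that SOX proteins bind was found in 1 of the 7, in 25.5% of the 47 and in 21.0% of the 27025 genes. A gene was counted if any of its promoters held the element, so genes with more promoters had more chances. The 27025 genes were not limited to protein-coding ones. The authors give the shorter CAAAG as the canonical SOX2 motif, which was not counted here. The Srsf5 sequence below holds it in small letters. The promoters of Srsf5, with the largest rise, Srsf7, the one of the 7 with ACAAAG, and Qk, with the largest fall, are shown. Each is on the strand of its gene, with GGGCGG and ACAAAG in capitals, read on either strand (CCGCCC and CTTTGT are their reverse complements). They lie at chr12:80945249-80945548 (+), chr17:80207256-80207555 (-) and chr17:10319312-10319611 (-).
Srsf5: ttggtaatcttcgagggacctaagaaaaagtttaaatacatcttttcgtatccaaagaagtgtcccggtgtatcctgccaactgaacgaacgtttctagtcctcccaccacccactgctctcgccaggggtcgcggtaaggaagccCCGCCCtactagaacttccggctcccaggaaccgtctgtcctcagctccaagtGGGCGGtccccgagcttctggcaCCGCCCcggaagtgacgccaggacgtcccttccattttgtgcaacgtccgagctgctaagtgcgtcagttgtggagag
Srsf7: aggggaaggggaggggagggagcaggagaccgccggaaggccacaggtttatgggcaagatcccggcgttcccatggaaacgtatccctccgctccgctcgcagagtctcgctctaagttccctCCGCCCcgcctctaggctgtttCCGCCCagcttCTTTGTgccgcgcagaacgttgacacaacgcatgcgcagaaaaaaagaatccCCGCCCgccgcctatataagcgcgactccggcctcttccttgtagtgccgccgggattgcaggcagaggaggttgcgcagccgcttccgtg
Qk: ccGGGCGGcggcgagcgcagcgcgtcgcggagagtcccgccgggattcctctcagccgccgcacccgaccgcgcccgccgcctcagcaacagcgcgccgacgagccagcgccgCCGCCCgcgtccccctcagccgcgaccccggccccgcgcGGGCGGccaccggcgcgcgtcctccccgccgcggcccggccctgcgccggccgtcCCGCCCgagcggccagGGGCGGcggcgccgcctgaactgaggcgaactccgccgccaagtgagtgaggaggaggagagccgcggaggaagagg
GC boxes were matched at 3 places in the Srsf5 promoter, 3 in that of Srsf7 and 5 in that of Qk.

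Among the 20 hnRNP genes, 5 were called higher and 3 lower (25.0% and 15.0%, against 12.2% and 12.4% of all genes), and the median over the family was 0.07 (log2 fold change). Their summed CPM was 3270 to 3440 in Ctrl and 3450 to 3490 in Sox2 cKO. Hnrnpdl, which binds AU-rich RNA and regulates its own splicing, was at 137, 113 and 99.2 CPM in Ctrl and at 202, 163 and 154 CPM in Sox2 cKO, with a log2 fold change of 0.57 ± 0.14 (SE, edgeR adjusted p = 0.018). Hnrnph1, which binds runs of G, was at 210, 157 and 145 CPM in Ctrl and at 255, 239 and 232 CPM in Sox2 cKO, with a log2 fold change of 0.51 ± 0.13 (SE, edgeR adjusted p = 0.022). Both were separated between groups, with Ctrl library 2 the highest Ctrl value. Hnrnpa2b1, which also carries mRNAs along processes of neural cells, was at 418, 316 and 342 CPM in Ctrl and at 498, 481 and 450 CPM in Sox2 cKO, with a log2 fold change of 0.41 ± 0.11 (SE, edgeR adjusted p = 0.025). Hnrnpm was at 105, 88.5 and 83.3 CPM in Ctrl and at 130, 118 and 107 CPM in Sox2 cKO, with a log2 fold change of 0.36 ± 0.11 (SE, edgeR adjusted p = 0.036). For Hnrnpm, 14.7% of the exon bases are shared with March2 on the same strand, so reads there may be assigned to neither or either gene. Hnrnpu, a nuclear matrix protein that binds chromatin and RNA, was at 70.7, 64.0 and 66.9 CPM in Ctrl and at 87.8, 83.0 and 85.8 CPM in Sox2 cKO. The log2 fold change of Hnrnpu was 0.35 ± 0.07 (SE, edgeR adjusted p = 0.014), and with the length correction it was 0.63, for a gene of 7640 bases.

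The 3 hnRNP genes called lower included both paralogs of Hnrnpu. Hnrnpul2 was at 402, 464 and 475 CPM in Ctrl and at 296, 333 and 347 CPM in Sox2 cKO, with a log2 fold change of -0.46 ± 0.10 (SE, edgeR adjusted p = 0.015). Hnrnpul1 was at 96.2, 109 and 115 CPM in Ctrl and at 79.8, 82.0 and 83.2 CPM in Sox2 cKO, with a log2 fold change of -0.38 ± 0.08 (SE, edgeR adjusted p = 0.015). Hnrnpu and its paralogs thus changed in opposite directions, and each kept its call with the length correction. Hnrnpab, which binds mRNAs transported in neurons and oligodendrocytes, was at 86.9, 89.3 and 100 CPM in Ctrl and at 73.4, 72.5 and 78.3 CPM in Sox2 cKO, with a log2 fold change of -0.30 ± 0.08 (SE, edgeR adjusted p = 0.025). Phykpl covers 29.1% of the Hnrnpab exon bases on the opposite strand. Hnrnpa1, an antagonist of Srsf1 at many exons, had the highest level per length of the 53 genes, at 168 ± 9.64 FPKM in Ctrl and 161 ± 4.80 FPKM in Sox2 cKO (SD, n = 3 per group). It was not called (log2 fold change -0.17 ± 0.09, SE, edgeR adjusted p = 0.18), although it was with the length correction, at a log2 fold change of -0.36. Processed copies of Hnrnpa1 can share its reads, and the 2 with names in the table held 8 and 13 counts. The other 11 hnRNP genes not called ranged in log2 fold change from -0.19 (Hnrnpa3) to 0.27 (Hnrnpf).

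**Figure D2:**
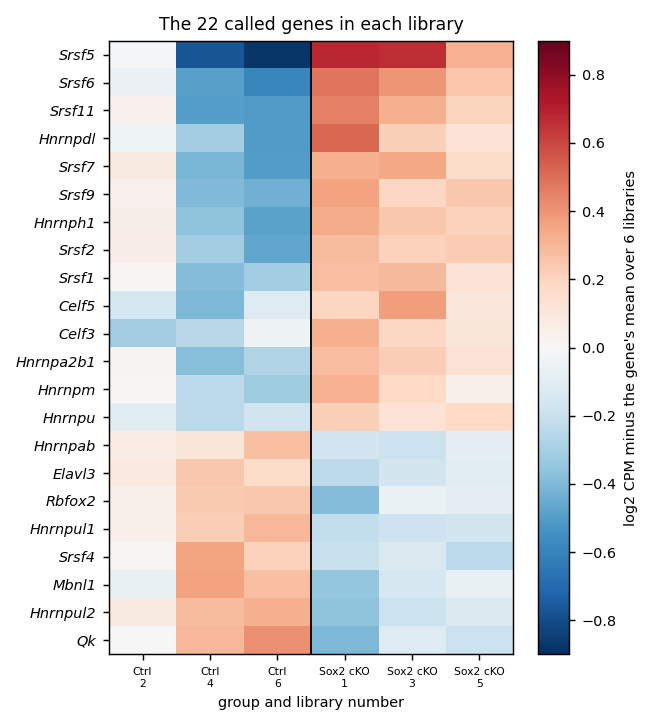
log2 CPM of the 22 called genes in each library, minus the gene's mean over the 6 libraries, with Ctrl on the left and genes ordered by log2 fold change. Over the 14 genes called higher, Ctrl library 2 had a median of 0.01, library 4 of -0.39 and library 6 of -0.45, so library 2 stood between the other Ctrl libraries and Sox2 cKO.

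Ctrl library 2 was the highest Ctrl library for 12 of the 14 genes called higher and the lowest for 8 of the 8 called lower. The same was not counted over all called genes, so it is not shown to be particular to these 22. In Sox2 cKO libraries 1, 3 and 5 the medians over the genes called higher were 0.32, 0.24 and 0.17 log2 units above the mean of each gene. Over the genes called lower, the same medians were 0.05, 0.26 and 0.27 for Ctrl and -0.29, -0.16 and -0.11 in the Sox2 cKO libraries. Without Ctrl library 2, 29 of the 53 genes were called, 17 higher and 12 lower, against 36.9% of all genes, 18.3% higher and 18.6% lower. Of the 22 called genes, chosen by a test on these same values, 21 did not overlap between the groups, and Mbnl1 was the exception.

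Of the 22 neural splicing factor genes, 2 were called higher (9.09%, against 12.2% of all genes) and 4 lower (18.2%, against 12.4%). The 27.3% called in all was near the 24.6% of all genes, and their median was -0.05 (log2 fold change). Qk (chr17:10202601-10319854, - strand), a regulator of splicing in myelinating glia and astrocytes, had the largest fall of the 53 genes. Its CPM was 749, 922 and 994 in Ctrl and 564, 690 and 655 in Sox2 cKO. All 3 Sox2 cKO libraries were below all 3 Ctrl libraries, and the log2 fold change was -0.48 ± 0.12 (SE, n = 3 per group, edgeR adjusted p = 0.021). Per length it was the highest of the neural genes, at 127 ± 14.8 FPKM in Ctrl and 97.9 ± 8.60 FPKM in Sox2 cKO (SD). With the length correction its log2 fold change was -0.23 and it was not called (adjusted p = 0.086). Astrocyte markers summed to 8540 to 10300 CPM in Ctrl and 6670 to 6840 in Sox2 cKO, with 5 of 10 lower and 1 higher. Much of the sum was Gfap (mean 2840 CPM in Ctrl, 1310 in Sox2 cKO) and Slc1a2 (2540 and 1660). The marker called higher was S100b (log2 fold change 0.71), and Gja1, Gjb6, Aldoc and Fgfr3 were not called. Oligodendrocyte precursor markers summed to 634 to 714 CPM in Ctrl and 495 to 561 in Sox2 cKO, with 6 of 8 lower. Of the other lists, 0 of 10 oligodendrocyte markers were called by edgeR and 3 by DESeq2, and 1 of 8 microglial and 1 of 8 endothelial markers were higher. With the length correction, 3 of 10 astrocyte and 4 of 8 precursor markers were lower. So were 2 of 10 oligodendrocyte and 1 of 8 microglial markers, and 1 of 8 endothelial markers was higher. Of all genes, 7.56% were then lower and 6.12% higher. No marker of any list was at 0. The part of these markers in the level of Qk was not tested, and fewer cells of a type and less RNA per cell cannot be told apart in whole tissue.

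Rbfox proteins bind the element GCATG in introns. Rbfox2, the most widely expressed of the family, was at 173, 198 and 199 CPM in Ctrl and at 128, 161 and 158 CPM in Sox2 cKO, with a log2 fold change of -0.35 ± 0.11 (SE, edgeR adjusted p = 0.038). Its neuronal relatives Rbfox1, the highest of the family per length, and Rbfox3, the antigen known as NeuN, were not called, at log2 fold changes of 0.11 ± 0.09 and 0.15 ± 0.09 (SE). Mbnl1, which shifts exons toward adult patterns, was at 157, 212 and 199 CPM in Ctrl and at 129, 148 and 157 CPM in Sox2 cKO, with a log2 fold change of -0.39 ± 0.12 (SE, edgeR adjusted p = 0.043). One Sox2 cKO and one Ctrl library of Mbnl1 met at 157 CPM. Mbnl2, the member of higher level per length, was at 208 to 232 CPM in Ctrl and 197 to 228 in Sox2 cKO and was not called. The calls of Rbfox2 and Mbnl1 were lost with the length correction, at adjusted p of 0.41 and 0.15.

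The Elavl genes encode neuronal proteins that bind AU-rich RNA. Elavl3 was at 367, 409 and 388 CPM in Ctrl and at 294, 308 and 324 CPM in Sox2 cKO, with a log2 fold change of -0.33 ± 0.08 (SE, edgeR adjusted p = 0.022, and 0.072 with the length correction). Elavl2 and Elavl4 overlapped between groups, at log2 fold changes of -0.11 ± 0.09 and 0.14 ± 0.10 (SE). Markers of neurons summed to 14100 to 14600 CPM in Ctrl and 13200 to 13800 in Sox2 cKO. Of these, 2 of 15 were higher and 2 lower (13.3% each, near the 12.2% and 12.4% of all genes). Stmn2 and Uchl1 were those higher, and Nefh and Map2 those lower. The CPM of all genes tested also summed lower in Sox2 cKO, at 944000 to 988000 against 1010000 to 1060000 in Ctrl. The FPKM of the neuronal markers summed to 3760 to 3930 in Ctrl and to 4000 to 4080 in Sox2 cKO. The FPKM sum of all genes tested was also higher in Sox2 cKO. The part of these markers in the levels of neuronal splicing factors was not tested.

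In the Celf family, which binds GU-rich elements, the members called higher were among those of low level. Celf5 was at 17.1, 14.4 and 17.6 CPM in Ctrl and at 21.8, 24.9 and 20.6 CPM in Sox2 cKO, with a log2 fold change of 0.45 ± 0.11 (SE, edgeR adjusted p = 0.022). Celf3 was at 7.49, 7.82 and 9.03 CPM in Ctrl and at 11.7, 10.6 and 10.1 CPM in Sox2 cKO, with a log2 fold change of 0.41 ± 0.13 (SE, edgeR adjusted p = 0.044, and 0.12 with the length correction). DESeq2 did not call Celf3, and of the 6 edgeR and 6 DESeq2 fits without a library, 0 called it. Both are expressed mainly in neurons, and the groups did not overlap for either. Celf4, the highest of the family per length at 61.5 ± 2.74 FPKM in Ctrl (SD), had a log2 fold change of -0.17 ± 0.08 (SE) and was not called. Celf1, Celf2 and Celf6 lay within 0.08 of 0, at -0.04 ± 0.07, -0.08 ± 0.07 and -0.03 ± 0.12 (SE).

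With all libraries, the Nova, Ptbp and Khdrbs families held 0 called genes of 7 by edgeR, 0 by DESeq2 and 0 by limma. By edgeR, 3 had an unadjusted p under 0.05. Of the 6 edgeR and 6 DESeq2 fits without a library, 1 of each called Nova1, Nova2, Ptbp2 and Ptbp3. Ptbp1, Khdrbs2 and Khdrbs3 were called in 0. Nova1 and Nova2, neuronal proteins that govern the splicing of synaptic transcripts, had log2 fold changes of -0.23 ± 0.10 and -0.31 ± 0.12 (SE, edgeR adjusted p = 0.12 and 0.078). Ptbp1, a repressor of neuronal exons outside neurons, was at 18.2, 19.5 and 18.7 CPM in Ctrl and 19.3, 17.4 and 18.1 CPM in Sox2 cKO. Its neuronal paralog Ptbp2 had a log2 fold change of 0.15 ± 0.10 and Ptbp3 of -0.20 ± 0.10 (SE). Khdrbs3 and Khdrbs2, relatives of Sam68, had log2 fold changes of 0.10 ± 0.08 and 0.29 ± 0.12 (SE).

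**Figure D3:**
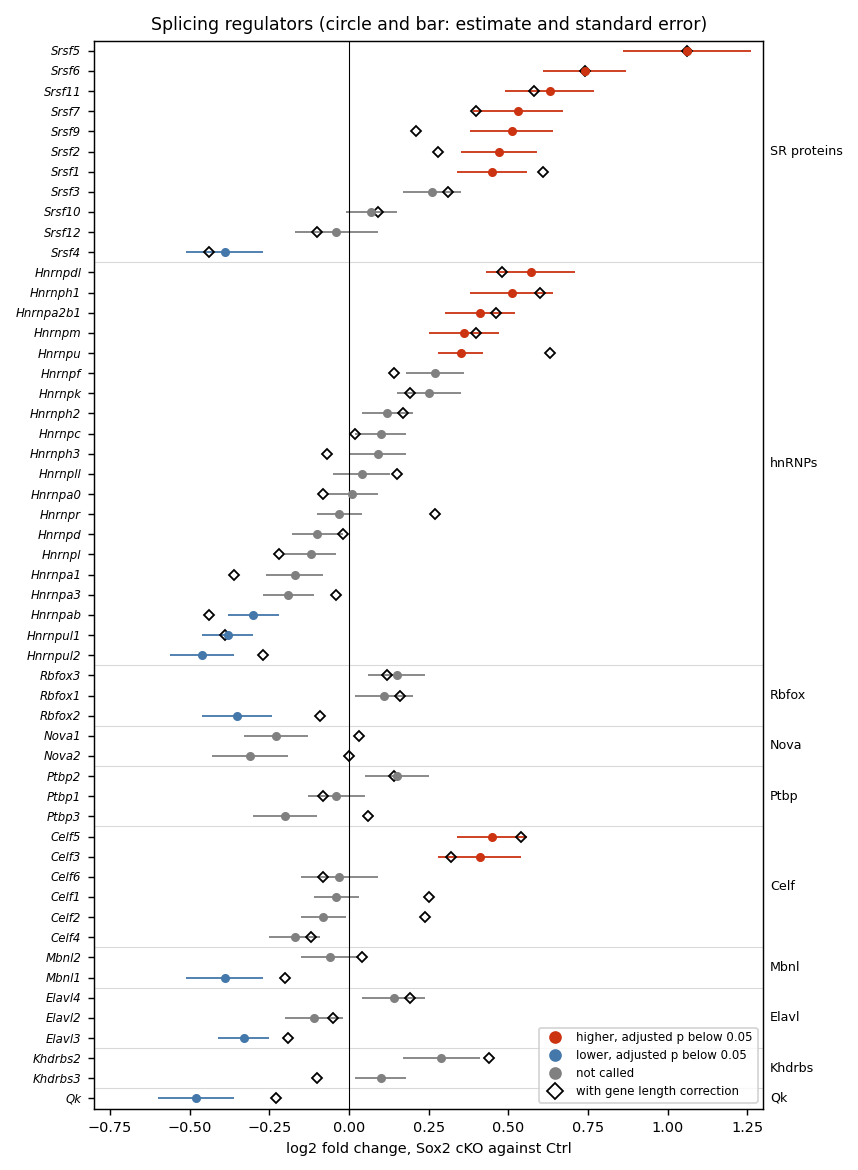
log2 fold change of the 53 genes by family, with circles and bars for the edgeR estimate and its standard error and open diamonds for the estimate with the gene length correction. The rises of Srsf5 and Srsf6 stay at 1.06 and 0.74 with the correction, and the falls of Qk, Rbfox2 and Mbnl1 move toward 0.

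Fold changes went with gene length over the whole table. Spearman's rho between length and log2 fold change was -0.48 over the 16137 genes and -0.35 over the 53 genes, given as a description across genes of the same libraries. Within the 11 SR protein genes rho was -0.06. Long genes were lower and short genes higher in Sox2 cKO, and what produced this trend was not tested. A correction that removed it in each library called 17 of the 53 genes, 12 higher and 5 lower, against 13.7% of all genes, 6.12% higher and 7.56% lower. The median log2 fold change was then 0.12 over the 53 genes and -0.01 over all genes. It called 6 SR protein genes higher and 1 lower at a family median of 0.31. Srsf3 (higher) and Hnrnpa1 (lower) were called with the correction and not without it. The calls it did not make were those of Srsf2, Srsf9, Celf3, Elavl3, Mbnl1, Qk and Rbfox2, so that of the neural genes Celf5 remained called.

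**Figure D4:**
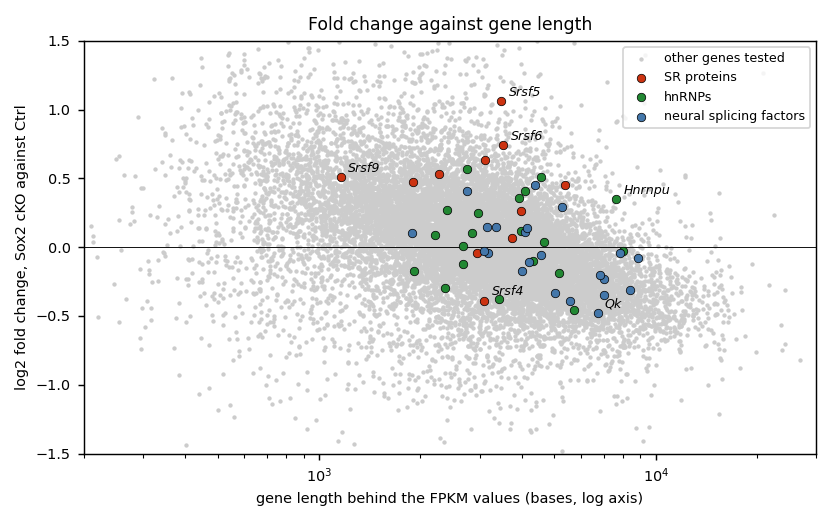
log2 fold change against the gene length behind the FPKM values (log axis) for all genes tested within 1.5 of 0 (grey) and for the 53 genes by class. The grey points fall with length (rho -0.48), and Srsf5 and Srsf6 stand at 1.06 and 0.74, above the median of 0.02 over all genes.

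The classes of call were also set beside the annotation of transcripts, with no test. GENCODE M21 lists a transcript subject to nonsense-mediated decay for 10 of the 14 genes called higher (71.4%), 2 of the 8 called lower (25.0%) and 15 of the 31 not called (48.4%). Among all tested protein-coding genes the share was 27.0%. A retained intron was annotated for 12 of the 14, 6 of the 8 and 19 of the 31, against 55.8% of all tested protein-coding genes. These are counts over annotated transcripts. The gene counts do not show which transcript the reads came from, and genes with more annotated transcripts have more chances to hold either kind.

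The kinases and partners of these proteins, and the spliceosome itself, were measured in the same libraries. Of 171 other splicing genes tested, 46 were called higher and 14 lower (35.1% together, against 24.6% of all genes, and 26.9% and 8.19% against 12.2% and 12.4%). Their median was 0.14 on the log2 scale. Without Ctrl libraries 2, 4 and 6 in turn 96, 0 and 16 were called, against 36.9%, 0.159% and 6.54% of all genes, and without Sox2 cKO libraries 1 and 3 in turn 0 and 23, against 0.0485% and 8.31%. With 0 called by edgeR, 65 and 72 had an unadjusted p under 0.05, and DESeq2 called 27 and 34. Of 10 kinases of SR proteins, 4 were higher and 1 lower, together 5 of 10. Clk1, which phosphorylates SR proteins in the nucleus, was at 108, 69.7 and 56.2 CPM in Ctrl and at 135, 144 and 125 CPM in Sox2 cKO, with a log2 fold change of 0.79 ± 0.19 (SE, edgeR adjusted p = 0.020). Its relative Clk4 had a log2 fold change of 0.56 ± 0.12 (SE, edgeR adjusted p = 0.015). Neither kinase overlapped between the groups.

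Of 22 SR-related coactivators, 3 were higher and 3 lower, and this 27.3% was near the 24.6% of all genes. Rsrp1, a protein rich in arginine and serine, had the largest change of the 171, at 178, 101 and 78.1 CPM in Ctrl and 302, 297 and 243 CPM in Sox2 cKO. Its log2 fold change was 1.24 ± 0.24 (SE, edgeR adjusted p = 0.013), and Ctrl library 2 was again the Ctrl library nearest to Sox2 cKO. Scaf11 had a log2 fold change of -0.41 ± 0.09 (SE, edgeR adjusted p = 0.016), and of -0.12 with the length correction, where it was not called. Of 42 other splicing regulators, 10 were higher and 2 lower (23.8% and 4.76%, against 12.2% and 12.4% of all genes). Together this was 28.6%, against 24.6% of all genes. Tia1, which promotes U1 recruitment, was at 0.63 ± 0.12 (log2 fold change, SE). Khsrp, which binds intronic enhancers and AU-rich RNA, was at -0.51 ± 0.10 (log2 fold change, SE).

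The U1, U2 and Sm proteins, the core of early spliceosomes, had 13 of 24 genes higher and 1 lower (58.3% together, against 24.6% of all genes), at a median of 0.42 (log2 fold change). Snrpg, an Sm protein, changed by 0.82 ± 0.12 and Phf5a, a subunit of SF3B, by 0.76 ± 0.12 (log2 fold change, SE, edgeR adjusted p = 0.012 for both). These genes were short, with a median length of 1970.5 bases against 3060 over all genes. With the length correction 11 of them were higher and 0 lower at a median of 0.22, against 6.12% and 7.56% of all genes. Of 23 U4/U6, U5 and LSm proteins, 4 were higher and 3 lower (30.4% together), with Lsm7 at 0.87 ± 0.15 and the helicase Snrnp200 at -0.54 ± 0.11 (log2 fold change, SE). With the length correction 1 was higher and 3 lower, beside the same shares of all genes.

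Of 29 proteins of the Prp19 complex and late steps, 5 were higher and 2 lower (17.2% and 6.9%, against 12.2% and 12.4% of all genes). Together this was 24.1%, near the 24.6% of all genes. Those lower were the helicases Dhx8 and Dhx38, at -0.45 ± 0.09 and -0.41 ± 0.11 (log2 fold change, SE). Of 21 proteins of the exon junction complex and mRNA export, 7 were higher and 2 lower (33.3% and 9.52%, together 42.9%). The export receptor Nxf1 was at 0.73 ± 0.12 and the junction protein Magoh at 0.82 ± 0.19 (log2 fold change, SE). With the length correction these counts were 2 higher and 2 lower for the first list and 2 higher and 4 lower for the second. Of all genes, 6.12% were then higher and 7.56% lower.

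**Figure D5:**
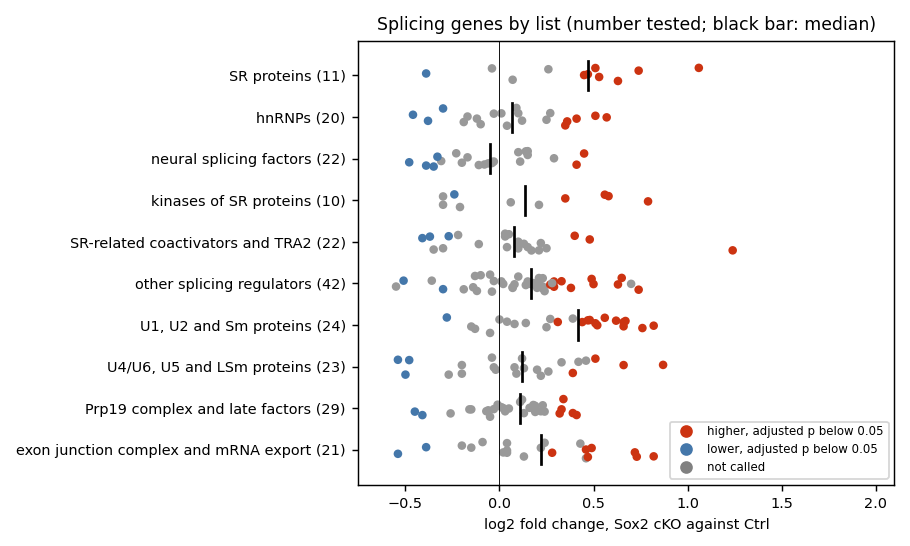
log2 fold change of each gene in the 3 classes of splicing regulators and in 7 lists of other splicing genes, with genes called higher in red, lower in blue and not called in grey, and a bar at each median. The medians of the SR proteins (0.47) and of the U1, U2 and Sm proteins (0.42) stand above those of the other lists, which lie between -0.05 and 0.22.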

How the data were processed

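Spinal cord RNA of 3 Sox2 cKO and 3 Ctrl mice was analysed. The authors aligned single-end reads of a directional poly(A) library to mm10 with STAR 2.5 and counted reads per gene with HTSeq 0.6.1. These counts were deposited without normalization, together with FPKM values that the authors made from the counts and gene lengths. Whether counting used the strand is not stated. The deposited columns carry numbers and not sample names. They were grouped by the stated rule, and 0 further columns were present.

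The main test was that of edgeR 4.0.16 under R 4.3.3 (filterByExpr, TMM, quasi-likelihood test, Benjamini-Hochberg adjustment over all 16137 genes, threshold 0.05). The alternatives were DESeq2 1.42.0, upper quartile normalization, no filter, at least 10 counts in every library, limma 3.58.1 on log2(FPKM + 1) or log2(FPKM + 0.1) for genes of mean FPKM of at least 0.5, a lowess correction for gene length (span 0.3), and fits without each library. The DESeq2 fits that omit a library were chosen after seeing the data. An exact permutation test of 1 gene cannot give p below 0.1. The fits were tested on simulated data.

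The members and lists were chosen with earlier results of these data known. The genes named are the members called, the member of highest mean FPKM in each family, the neural members, the 2 smallest adjusted p in each list, and Sox2. Other names were chosen after their values were seen. Names and positions came from GENCODE M21 (34490 of 35275 identifiers matched).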

Additional observations from a re-analysis of the deposited data

How the results depend on the processing

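No paired analysis was possible because the deposited columns carry no replicate numbers. Counts of members called stayed within 1.5 times of 22 under the alternatives that kept all libraries (17 to 23), and under edgeR without 1 library they ran from 0 to 29. Limma on log2(FPKM + 1) called 17 higher and 4 lower, and on log2(FPKM + 0.1) 16 higher and 4 lower, while the median of all genes moved from 0.02 to 0.09 and 0.11. The length correction left 5 lower. Over edgeR and DESeq2 fits without 1 library, counts ran from 0 to 31 for members called, 0 to 14 for those lower, 0 to 17 for those higher, 0 to 8 for SR proteins higher and 0 to 96 for other splicing genes. DESeq2 without 1 library called 13 to 31 members and 5 to 8 SR proteins higher. The median log2 fold change of the members was 0.11 with upper quartile normalization, 0.16 with either limma fit, 0.12 with the length correction and 0.01 to 0.11 without 1 library. The direction of 15 of the 53 genes turned in at least 1 fit, and there were 0 calls in the fits where it turned. Of these, 6 were SR protein or hnRNP genes (Srsf12, Hnrnpa0, Hnrnpll, Hnrnpr, Hnrnpd and Hnrnph3), and the other 9 follow. With the length correction, Celf2 was at 0.24, Celf1 at 0.25, Nova1 at 0.03, Nova2 at 0.00, Mbnl2 at 0.04, Ptbp3 at 0.06 and Khdrbs3 at -0.10. With limma at either pseudocount, Celf2 was at 0.01, Celf1 at 0.06, Mbnl2 at 0.04, Ptbp1 at 0.05 and 0.06 and Celf6 at 0.06 and 0.07. With upper quartile normalization, Celf1 was at 0.01, Ptbp1 at 0.00 and Celf6 at 0.01, and without Ctrl library 6 Celf6 was at 0.04 by edgeR and 0.02 by DESeq2, within a range of -0.13 to 0.04 without 1 library. The cause of these turns was not tested.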
